A study of Mus musculus with 9 samples.

Results

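The miR-101 family in mouse milk fat was described through 3 mature miRNAs, mmu-miR-101a-3p, mmu-miR-101a-5p and mmu-miR-101b-3p, chosen by name from the 1915 mature names in the count table, of which 828 had at least 1 count. All 3 were detected, and 2 of them, the 3p strands, passed the filter on low counts that left 312 names for testing. The table holds 2 more names of the family, miR-101b-5p and miR-101c, and these are given for comparison. The libraries came from the washed milk fat of 9 first-litter ICR (CD1) dams, an outbred stock, on lactation day 10. The high-fat group (n = 4) ate a diet with 60% of its energy as fat, at 5.24 kcal per g, and the control group (n = 5) one with 10%, at 3.85 kcal per g. Both diets drew 7% of their energy from sucrose, and both were fed from 4 weeks of age, for 4 weeks before mating, and then through pregnancy and lactation. Before mating, cages held 2 dams of the same diet, and the sources used here do not say which.

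A miRNA is cut from a hairpin precursor whose 2 arms give a 5p and a 3p strand. One strand, the guide, is loaded into an Argonaute protein and the other is mostly degraded. The guide finds messenger RNAs by pairing its seed, bases 2 to 8, with their 3′ untranslated regions, and lowers their translation and stability. miR-101 is known as a repressor of Ptgs2, which encodes the prostaglandin-making enzyme Cox-2, and of Ezh2, the methyltransferase of the Polycomb repressive complex that silences genes. In a mouse mammary epithelial cell line, raising miR-101a has been reported to lower Cox-2, cell growth and expression of the milk protein β-casein. Milk fat globules are wrapped in membrane of the secretory epithelial cell and enclose some of its cytoplasm.

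The mature sequences are shown because the family members differ in where their seeds begin. Each is printed 5′ to 3′ from RefSeq, with the seed in capitals.
miR-101a-3p: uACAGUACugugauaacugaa
miR-101b-3p: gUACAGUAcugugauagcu
miR-101c: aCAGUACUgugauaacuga
miR-101a-5p: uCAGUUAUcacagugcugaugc
miR-101b-5p: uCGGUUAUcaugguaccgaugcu

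In these entries miR-101b-3p starts 1 base earlier than miR-101a-3p. Over the 18 bases that then align, 17 are equal, and the difference is A16G, counted from the 5′ end of miR-101a-3p. Because of the shifted start, the 2 strands carry different seeds, ACAGUAC in miR-101a-3p and UACAGUA in miR-101b-3p, and miR-101c, which starts 1 base later than miR-101a-3p, carries another, CAGUACU. The whole of miR-101c, 19 bases, is contained in bases 2 to 20 of miR-101a-3p. The sources used here do not say how reads that fit several of these names were assigned. No 2 of the 3 names miR-101a-3p, miR-101b-3p and miR-101c had equal counts in any library, which does not tell how shared reads were assigned. No other of the 1623 names with a RefSeq sequence shared bases 2 to 8 with miR-101a-3p, miR-101a-5p, miR-101b-3p or miR-101c. The seed of miR-101b-5p was not compared. Over bases 2 to 7 the red cell miR-144-3p matched miR-101a-3p and had 0, 9, 79 and 3 counts in high-fat libraries 1 to 4, against 10 over all controls, so high-fat library 3 held most of them. Over the same bases miR-582-5p matched miR-101b-3p and had 222 counts over the high-fat libraries and 210 over the controls.

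The hairpins are shown to place the 5p and 3p strands, which are in capitals, on their 2 arms.
Mir101a: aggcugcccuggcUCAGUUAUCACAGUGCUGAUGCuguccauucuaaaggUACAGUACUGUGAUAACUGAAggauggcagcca
Mir101b: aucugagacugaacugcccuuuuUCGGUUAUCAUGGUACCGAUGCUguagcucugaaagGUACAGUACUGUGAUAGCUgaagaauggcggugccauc

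The Mir101a hairpin lies on the minus strand of chromosome 4 at 101346945 to 101347027 (GRCm38), inside an exon of the long noncoding RNA E130102H24Rik on the same strand. The Mir101b hairpin lies on the plus strand of chromosome 19 at 29135279 to 29135375, in an intron of Rcl1, a ribosomal RNA processing gene, also on the same strand. miR-101c is annotated on the minus strand of chromosome 9 at 3038680 to 3038698 and overlaps no other annotated gene. The 3 precursors therefore sit on 3 chromosomes, and the 2 main ones have different host transcripts.

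The seed matches in the 2 best known targets are shown because a single stretch of each holds matches to the seeds of both 3p strands. Each line gives the match to the seed of miR-101a-3p, GTACTGT, in capitals, within the longest annotated 3′ untranslated region, on the sense strand.
Ptgs2, bases 1619 to 1625 of the region: ttatcagctgagGTACTGTatatt
Ezh2, bases 114 to 120 of the region: tgaatttgcaaaGTACTGTaacag
Ezh2, bases 59 to 65 of the region: caggaaccttgaGTACTGTgggca

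The base after the match in Ptgs2 is an A, so the match to the seed of miR-101b-3p, TACTGTA, lies 1 base further along in the same stretch. The same holds at bases 114 to 120 of Ezh2 but not at bases 59 to 65, where a G follows. GTACTGT is found in 14.9% and TACTGTA in 19.5% of the 4022 mouse 3′ untranslated regions at least as long as that of Ptgs2, over their first 2445 bases. For the 402 bases of Ezh2 the shares are 2.71% and 3.33% of 15295 regions. These are matches of letters, and no messenger RNA was measured here.

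The libraries held 1905838 to 3897109 mature miRNA counts in the high-fat group and 837817 to 2750482 in the control group, with control library 5 the shallowest. Epithelial markers, the 5 members of the miR-200 family in the list with miR-148a-3p and miR-146b-5p, made up 43.1% to 45.0% of the counts in high-fat and 40.5% to 44.8% in control libraries. Most of that share came from miR-146b-5p and miR-148a-3p, the 2 most abundant names. Of the 7 markers, 4 had a diet fold change above 0 and 3 below, and none passed the limma-voom test. Their log2 fold changes ran from -0.26 ± 0.16 (miR-200c-3p) to 0.77 ± 0.21 (miR-141-3p). Leukocyte markers, all 5 detected, made up 0.00778% to 1.14% of the counts in high-fat and 0.0356% to 0.0762% in control libraries, with high-fat libraries 1 and 3 above every other library. Red cell markers, all 3 detected, ran from 0.00133% to 0.0504% in high-fat and 0.00107% to 0.0111% in control libraries. High-fat library 3 held the 0.0504%, and the next highest value was the 0.0111% of control library 3. Stromal markers, all 3 detected and led by miR-143-3p, ran from 1.16% to 2.57% in high-fat and 1.03% to 1.91% in control libraries. The endothelial, liver and striated muscle lists each stayed under 0.01% in every library, and of them miR-206-3p of striated muscle had no counts. For striated muscle, high-fat library 3 stood apart at 0.00910%, where the next highest value was 0.000562% in control library 2. Since the libraries are bulk, fewer cells of a type and less of a miRNA per cell cannot be told apart in any value below.

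miR-101a-3p was the most abundant family member and ranked 34th of all names by mean level, as shown in the plot of level against rank. It measured 4503, 5105, 4397 and 6341 CPM (counts scaled to a common library size) in high-fat libraries 1 to 4, against 4448, 5829, 3289, 4589 and 2759 CPM in control libraries 1 to 5. High-fat library 4 was the highest of all and control library 5 the lowest, and the diets overlapped, since control library 2 lay above 3 of the 4 high-fat libraries. As a share of all counts it held 0.507% ± 0.0768 in high-fat milk (SD, n = 4) and 0.418% ± 0.116 in control milk (SD, n = 5).

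**Figure D1:**
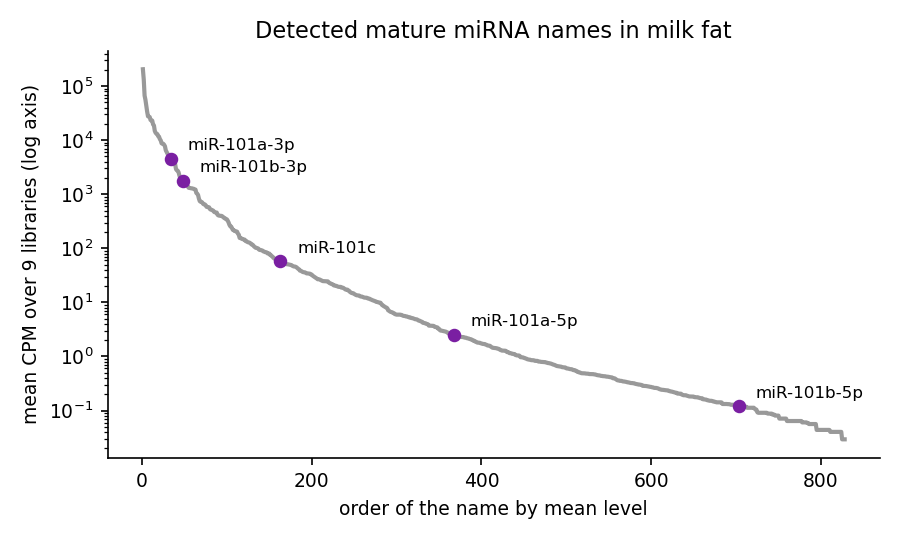
Mean CPM over 9 libraries (log axis) of the 828 detected names against their order by mean level, with the miR-101 names marked. miR-101a-3p is 34th and miR-101b-3p 48th, while miR-101a-5p averages 2.54 CPM.

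The diet difference of miR-101a-3p did not pass the test. Its log2 fold change, high-fat over control, was 0.31 ± 0.21 (SE), with a 95% interval from -0.16 to 0.79. The adjusted p was 0.650 (limma-voom, 312 tested names). Across all 312 names, limma-voom called 0 (0%) at an adjusted p of 0.05, with 32 at an unadjusted p under 0.05, and limma-trend called 2, neither from this family. By size of fold change miR-101a-3p was 140th of the 312. High-fat libraries 1 and 3 had the lowest miR-101a-3p of their group. Both were high in leukocyte markers, and library 3 also in red cell and striated muscle markers. Without both, which left high-fat libraries 2 and 4, the log2 fold change was 0.53 ± 0.29 (limma-voom, adjusted p = 0.398). Leaving out the lowest values of a group raises its mean whatever the markers, and the part of those markers was not tested. Without control library 5 the log2 fold change was 0.19 ± 0.20 (limma-voom, adjusted p = 0.748).

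The summed share of the stromal markers, most of it miR-143-3p, moved with miR-101a-3p in some libraries. This share was 1.25%, 1.16%, 1.23% and 2.57% in high-fat libraries 1 to 4, against 1.91%, 1.88%, 1.12%, 1.55% and 1.03% in control libraries 1 to 5. High-fat library 4 was the highest and control library 5 the lowest for this share as for miR-101a-3p. Control libraries 3 and 5 were the lowest of their diet for both. By contrast, high-fat library 2 had the lowest stromal share of its diet and its next to highest miR-101a-3p. Another marker of the list, miR-145a-5p, was also highest of the high-fat group in library 4, at 503 CPM. Control library 1 lay above that at 526 CPM, control library 5 had 433 CPM, and high-fat library 3 was the lowest at 280 CPM. Without high-fat library 4 the log2 fold change of miR-101a-3p was 0.19 ± 0.25 (limma-voom, adjusted p = 0.828). Leaving out the highest value of a group lowers its mean whatever the markers, and the part of the stromal markers was not tested.

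miR-101b-3p, from the other hairpin, ranked 48th by mean level. It measured 1542, 1898, 1816 and 2205 CPM in high-fat libraries 1 to 4, against 1682, 2148, 1408, 1887 and 1430 CPM in control libraries 1 to 5. High-fat library 4 was again the highest, control library 3 was the lowest, and high-fat library 1 lay below 3 of the 5 controls. It held 0.186% ± 0.0196 of the counts in high-fat milk (SD, n = 4) and 0.171% ± 0.0293 in control milk (SD, n = 5). The log2 fold change was 0.13 ± 0.17 (SE), with a 95% interval from -0.24 to 0.50 (limma-voom, adjusted p = 0.777). The interval covers values on both sides of 0. Leaving out high-fat libraries 1 and 3 gave 0.32 ± 0.22 on the log2 scale. Its smallest value in any alternative, 0.03, was reached without high-fat library 4, and without high-fat library 2 it was also 0.03. Of the 312 tested names, 15 or 4.81% had diets that did not overlap in CPM, and neither 3p strand was among them.

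**Figure D2:**
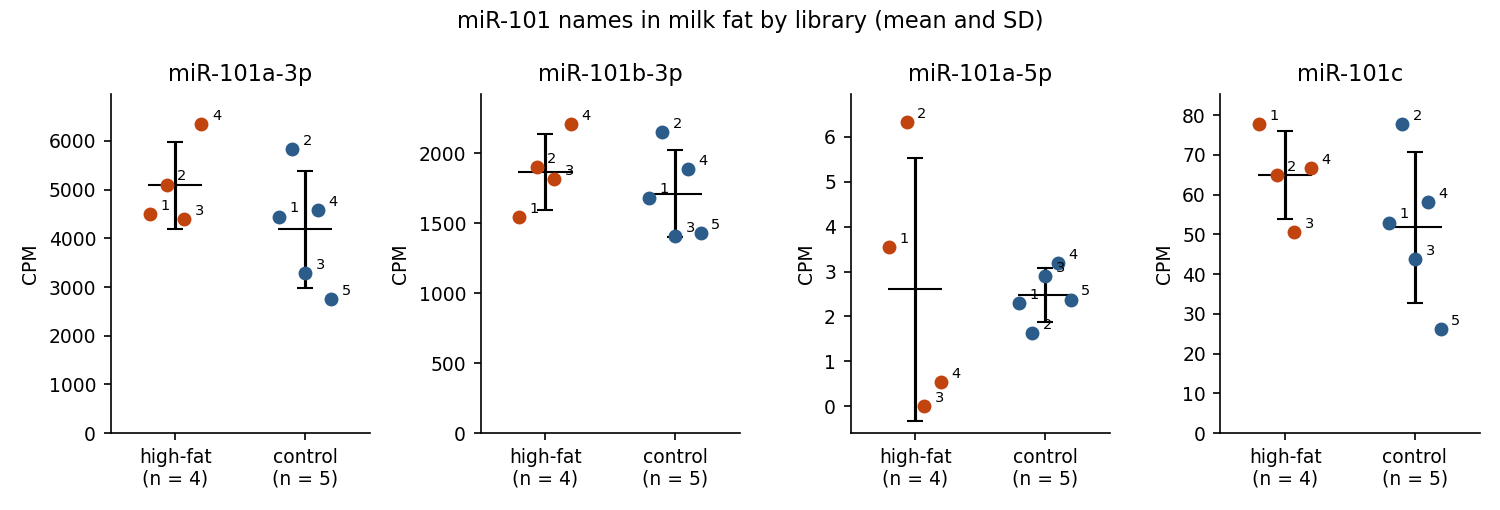
CPM of 4 miR-101 names by library in high-fat (left, n = 4) and control (right, n = 5) milk fat, each point numbered by library, with bars for the mean and SD. The diets overlap for each of the 4 names, and high-fat library 4 is the highest for both miR-101a-3p and miR-101b-3p.

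Between dams of one diet the 3p strands varied by a standard deviation of 0.24 (miR-101a-3p) and 0.21 (miR-101b-3p) log2 CPM in high-fat milk, where the median of all tested names was 0.42. In control milk it was 0.43 and 0.26, where the median was 0.39. Most tested names were less abundant than the 3p strands, and these medians were not matched for level. Control library 5 contributed the lowest miR-101a-3p value of that group.

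miR-101a-3p exceeded miR-101b-3p in 9 of 9 libraries. The ratio of their counts was 2.92, 2.69, 2.42 and 2.88 in high-fat libraries 1 to 4, against 2.64, 2.71, 2.34, 2.43 and 1.93 in control libraries 1 to 5. The high-fat ratios of libraries 1 and 4 lay above all controls, and control library 5 had the lowest ratio of all. Over the 9 dams the log2 ratio was 1.34 ± 0.18 (SD, n = 9), with a two-sided exact sign-flip permutation p of 0.00391, the smallest that 9 libraries can give. The ratio compares counts of reads, and how efficiently each sequence enters a library was not tested.

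Whether miR-101a-3p and miR-101b-3p differed in their response to diet was asked of that ratio, which does not depend on library scaling. The log2 ratio averaged 1.44 ± 0.12 in high-fat milk (SD, n = 4) and 1.26 ± 0.19 in control milk (SD, n = 5). The difference of 0.18, with a 95% interval from -0.07 to 0.48, gave p = 0.143 in a two-sided exact permutation test, and 0.302 when adjusted over the 3 ratios and shares compared here. With 4 and 5 libraries the smallest p this test can give is 0.0159. Without control library 5 the difference was 0.11, with an exact p of 0.257. The 3 members together held 0.693% ± 0.0942 of the counts in high-fat milk (SD, n = 4) and 0.589% ± 0.145 in control milk (SD, n = 5), a difference of 0.104 percentage points with an interval from -0.102 to 0.307 (exact permutation test, p = 0.222, adjusted p = 0.302).

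**Figure D3:**
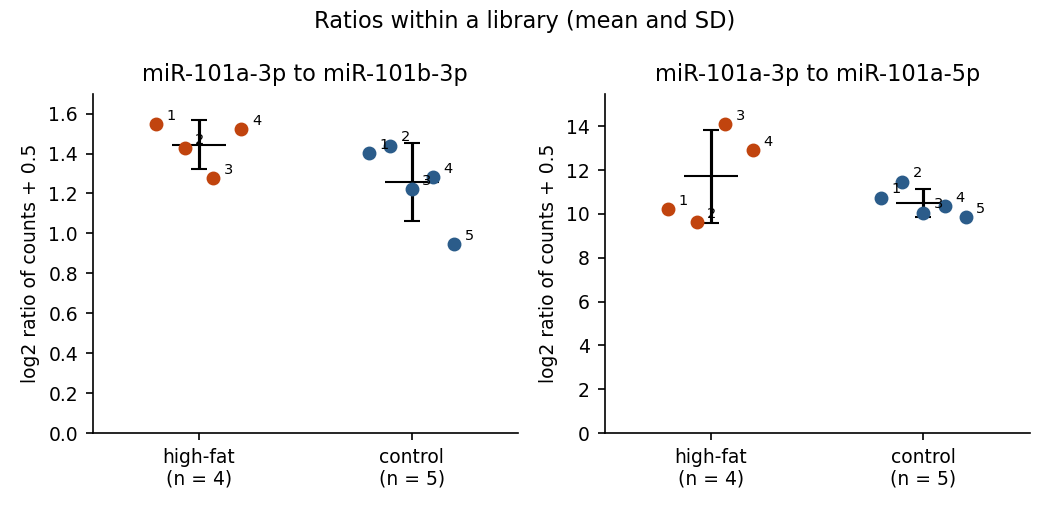
Log2 ratio of counts within each library, miR-101a-3p to miR-101b-3p on the left and miR-101a-3p to miR-101a-5p on the right, in high-fat (n = 4) and control (n = 5) milk fat, with points numbered by library and bars for mean and SD. The first ratio is above 0 in all 9 libraries, and for the second, high-fat libraries 3 and 4 lie above the other 7.

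The 2 arms of the Mir101a hairpin were far apart in level. miR-101a-5p had 34 counts over the 4 high-fat libraries beside 51126 of miR-101a-3p, and 21 counts over the 5 control libraries beside 33439. The 5p strand was thus 0.0528% ± 0.0591 of both arms in high-fat milk (SD, n = 4) and 0.0647% ± 0.0252 in control milk (SD, n = 5). By library it had 9, 24, 0 and 1 counts in high-fat libraries 1 to 4, against 4, 2, 8, 5 and 2 in control libraries 1 to 5. The high-fat libraries split, with libraries 1 and 2 at 3.55 and 6.34 CPM, above all controls, and libraries 3 and 4 at 0 and 0.543 CPM, below them.

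The gap within the high-fat group was larger than counting error between libraries 2 and 4. The 24 counts of library 2 are 0.000616% of its total (95% Wilson interval 0.000414% to 0.000916%), and the 1 count of library 4 is 5.25e-05% (9.26e-06% to 0.000297%). For the 0 of library 3 the upper Wilson bound is 0.000190%, and the floor of 3 counts, a different rule, is 0.000148%. miR-101a-5p did not pass the filter on low counts, and with no filter its log2 fold change was -0.70 ± 0.85 (limma-voom, adjusted p = 0.802). In that fit the median log2 fold change of all names was itself below 0, at -0.21. The mean level of miR-101a-5p was 2.61 ± 2.94 CPM in high-fat milk (SD, n = 4) and 2.48 ± 0.60 CPM in control milk (SD, n = 5). On the log2 scale the ratio of 3p over 5p counts averaged 11.72 ± 2.13 in high-fat milk (SD, n = 4) and 10.50 ± 0.64 in control milk (SD, n = 5), a difference of 1.22 with an interval from -1.18 to 3.72 (two-sided exact permutation test, p = 0.302). The high-fat mean rests on the pseudocount in library 3, which has no 5p count, and without that library the difference was 0.43.

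The other arm of Mir101b, miR-101b-5p, had 0 counts in all 4 high-fat libraries and in 4 of the 5 controls. Control library 3 held 3 counts, against 3885 of miR-101b-3p. In both hairpins nearly all counts came from the 3p arm.

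miR-101c measured 65.0 ± 11.1 CPM in high-fat milk (SD, n = 4) and 51.8 ± 18.9 CPM in control milk (SD, n = 5). By library it had 77.7, 64.9, 50.6 and 66.8 CPM in high-fat libraries 1 to 4, against 53.0, 77.7, 43.9, 58.1 and 26.2 CPM in control libraries 1 to 5. As with miR-101a-3p, control library 5 was lowest. Its counts were 1.05% to 1.72% of those of miR-101a-3p in high-fat and 0.948% to 1.33% in control libraries. Shortened reads of miR-101a-3p would also fit miR-101c, and their part in these counts was not tested. Its log2 fold change was 0.38 ± 0.27 (SE; limma-voom, adjusted p = 0.650).

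miR-101a-3p and miR-101b-3p varied together between dams. Over the 9 libraries their log2 CPM had a Pearson r of 0.915 (two-sided exact permutation p of 0.000554) and a Spearman rho of 0.917 (exact p of 0.00131), the 1 pair tested in this way. Without high-fat library 4 and control library 5, the 2 farthest from the median of miR-101a-3p, r was 0.894 (exact permutation p of 0.00873, n = 7) and rho 0.857. Within a diet r was 0.861 over the 4 high-fat and 0.950 over the 5 control libraries, and these 2 values were not tested. The 2 names share each library and its scaling factor. Their entries are equal at 17 of 18 aligned bases, and the part of reads that could fit both names was not tested.

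**Figure D4:**
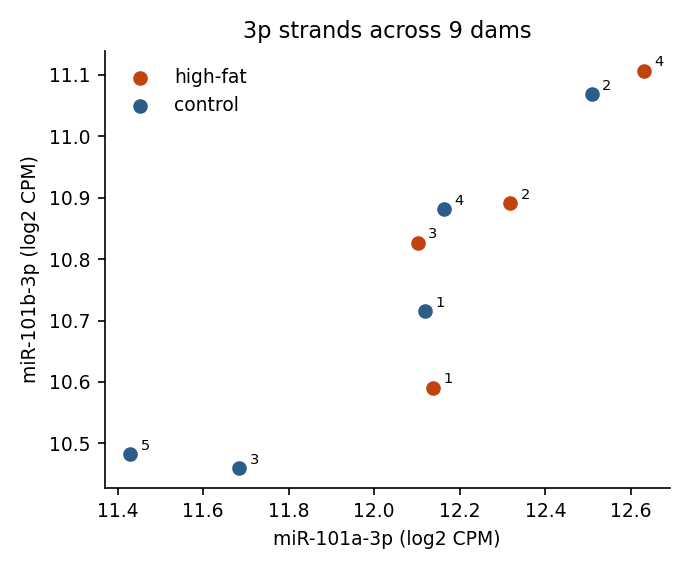
Log2 CPM of miR-101b-3p against miR-101a-3p in 9 dams, high-fat in red and control in blue, numbered by library. High-fat library 4 and control library 2 are highest for both strands, and control libraries 3 and 5 lowest.

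Among the other 311 tested names, those with the pattern most like miR-101a-3p over the 9 libraries were miR-362-3p (r of 0.938), miR-22-3p (0.932), miR-210-3p (0.921) and miR-30e-5p (0.916), followed by miR-101b-3p. The median r of all names with miR-101a-3p was -0.04. For miR-101b-3p the order began with miR-101a-3p, then miR-362-3p (0.848), miR-7a-5p (0.843), miR-148a-3p (0.838), an abundant milk miRNA, and miR-22-3p (0.836), beside a median of -0.04. miR-101c came 6th for miR-101a-3p, with an r of 0.876, and 22nd for miR-101b-3p, with 0.649. These are descriptions over 9 libraries that share their scaling with the members.

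miR-362-3p measured 551 ± 123 CPM in high-fat milk (SD, n = 4) and 393 ± 123 CPM in control milk (SD, n = 5; limma-voom, adjusted p = 0.534). miR-22-3p measured 8421 ± 2548 CPM in high-fat milk and 7160 ± 2780 CPM in control milk (limma-voom, adjusted p = 0.736). Of the 6 names listed here besides the family's own, none passed the diet test.

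Other miRNAs reported to repress Ptgs2 were set beside the family. All 6 of the list passed the low-count filter, 0 of 6 passed an adjusted p of 0.05 (limma-voom), and 6 of 6 had a fold change above 0, with a median log2 fold change of 0.40, where 158 of all 312 names were above 0 and the median was 0.0042. miR-199a-3p and miR-199b-3p had the same counts throughout, so the 6 are 5 measurements, and that pair is the median. Of the rest, miR-143-3p and miR-16-5p lay near 0, at 0.0051 ± 0.29 and 0.057 ± 0.22 on the log2 scale. Without high-fat library 3, 3 of the 6 names had a fold change above 0 and the median was -0.01, or 0.03 over the 5 measurements. miR-26b-5p measured 9482 ± 497 CPM in high-fat milk (SD, n = 4) and 7233 ± 1299 CPM in control milk (SD, n = 5), a log2 fold change of 0.41 ± 0.15 (limma-voom, adjusted p = 0.389), and it was one of the 4.81% of names whose diets did not overlap. miR-146a-5p, also an inflammation-induced miRNA, measured 740, 209, 655 and 326 CPM in high-fat libraries 1 to 4, against 227 to 286 CPM in the controls. Its 2 highest libraries were those high in leukocyte markers, and their part in this difference was not tested. miR-199a-3p had 15.8, 10.3, 291 and 28.8 CPM in high-fat libraries 1 to 4, against 10.7 to 29.7 CPM in the controls. Library 3 alone lay above the controls, and without it the log2 fold change was -0.55 ± 0.41 (limma-voom, adjusted p = 0.605).

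Of 6 miRNAs reported to repress Ezh2, all were detected and 3 passed the low-count filter. All 3, miR-26a-5p, miR-26b-5p and miR-98-5p, had fold changes above 0, at 0.23 ± 0.18, 0.41 ± 0.15 and 0.08 ± 0.17 on the log2 scale, and none of them passed the test. Of all 312 tested names, 158 were above 0. The value of miR-26b-5p is the one already counted in the Ptgs2 list, so the lists are not separate. Without high-fat library 3 the median of the 3 was 0.11, against 0.23 with it, and 2 of 3 were above 0; without high-fat library 2 it was 0.20, also with 2 of 3. miR-26a-5p, at 24964 ± 3631 CPM in high-fat milk (SD, n = 4) and 21582 ± 5681 CPM in control milk (SD, n = 5), was the most abundant of them and lay above miR-101a-3p. miR-124-3p, miR-138-5p and miR-214-3p had 12, 41 and 6 counts over the high-fat libraries and 4, 32 and 2 over the controls.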

How the data were processed

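Small RNA from the washed milk fat of 9 dams was sequenced, 1 library per dam. The deposited values are raw read counts of known mature miRNAs, with 1 column for each dam, per the file headers. The submitters' processing notes name cutadapt 1.9.1 and the build GRCm38. The sources used here do not name the aligner, counting tool or miRBase release, nor say how the kit's random adapter bases were handled. Totals ran from 837817 to 3897109 counts. Digit-grouping commas in 833 cells were removed, and limma-voom was used in place of a count model because the marked columns were not accepted as plain counts.

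In each library the highest of the rows of a name was kept, and every miR-101 name has 1 row. Testing required 5.25 CPM (10 counts at the median library) in 4 or more libraries, with 15 counts overall. Trimmed mean of M values factors (trims of 30% for log ratios and 5% for levels) were computed in R 4.3.3. Voom-weighted log2 CPM were fitted in limma 3.58.1 with diet as sole term, with two-sided tests and Benjamini-Hochberg adjustment across 312 names. The fit was tested on simulated data with changes far larger than those of the family, which does not show how well it finds small ones. Ratios within a library used 0.5 counts as pseudocount, and diets were compared by exact permutation, with intervals from the shifts not rejected at the 95% level. Wilson intervals on shares of single libraries, and the floor of 3 counts, cover counting error only.

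Named miRNAs were the family, other miR-101 names, the 5 names most like each 3p strand by Pearson correlation, the 2 names above and below each in level, and lists of reported Ptgs2 and Ezh2 regulators and of cell type markers. The members, the lists and the library exclusions were chosen with earlier results of these data known. Alternatives in scaling, filter, test, weights, pseudocount, replicate block and libraries left out were tried. Sequences are from RefSeq (GRCm38.p6), which matched all 5 miR-101 names, and 3′ untranslated regions and gene models from GENCODE M21.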

Additional observations from a re-analysis of the deposited data

How the results depend on the processing

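The log2 fold changes of miR-101a-3p and miR-101b-3p were above 0 in all 17 alternatives each, from 0.17 to 0.53 and from 0.03 to 0.32, and neither passed an adjusted p of 0.05 by limma in any, with adjusted p from 0.398 to 0.828 and from 0.504 to 0.935. The number of all tested miRNAs called between diets was 4 with no filter, 2 with limma-trend, 2 with library quality weights and 3 with the replicate block, and ran from 0 to 4 over the fits that left out 1 replicate, with 4 without control library 5; the cause was not tested, and no miR-101 name was among those called. With the replicate number as a block, the fold change on the log2 scale was 0.17 for miR-101a-3p and 0.07 for miR-101b-3p, over 4 pairs without control library 5. The labels do not say that a number pairs dams, and the correlations of same-numbered libraries ran from -0.159 to 0.197, with 2 of 4 highest for their own number. The diet differences in the ratio of the 3p strands (0.11 to 0.24), in the arm ratio (0.43 to 1.92) and in the summed share (0.0596 to 0.165 percentage points) kept their sign in 12 alternatives each and passed no exact test. The ratio of miR-101a-3p to miR-101b-3p over all libraries stayed between 1.32 and 1.39 on the log2 scale. miR-101a-5p, with at most 24 counts in a library, could be fitted only with no filter. Depth limits that strand and miR-101b-5p. In an alternative chosen after seeing the data, the Ptgs2 list without 1 library each had 3 to 6 of 6 names above 0, and the Ezh2 list 2 to 3 of 3.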

Other observations

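The miRNAs next to the 3p strands in mean level give a scale for them. Around miR-101a-3p, at 4585 ± 1117 CPM over the 9 libraries (SD), lay miR-24-3p and miR-183-5p above, at 5138 ± 918 and 4701 ± 1365 CPM, and miR-30b-5p and miR-203-3p below, at 4509 ± 543 and 4203 ± 2479 CPM. Around miR-101b-3p, at 1780 ± 289 CPM, lay miR-25-3p and miR-30a-3p above, at 1983 ± 552 and 1917 ± 339 CPM, and miR-10a-5p and miR-107-3p below, at 1730 ± 704 and 1656 ± 409 CPM. Of these 8 neighbours none passed the diet test, and miR-10a-5p, at 2271 ± 526 CPM in high-fat milk (SD, n = 4) and 1298 ± 507 CPM in control milk (SD, n = 5), had the largest log2 fold change, 0.89 ± 0.28, for which limma-voom gave an adjusted p of 0.281.

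None of 16 sets of family values, each from 1 diet, held a library set far apart by Dixon's test, so 0 were found where chance gives 0.8.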
